A study of Mus musculus with 8 samples.

Results

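Prostaglandins are made from arachidonic acid that phospholipases free from membranes. The cyclooxygenases PTGS1 and PTGS2 convert it to PGH2, and terminal synthases turn PGH2 into PGE2 (PTGES), prostacyclin (PTGIS) and other products. HPGD, a dehydrogenase, inactivates them. They act through G protein-coupled receptors: PTGER2 and PTGER4 raise cyclic AMP on binding PGE2, PTGER3 mostly lowers it, PTGFR binds PGF2alpha, and PTGIR binds prostacyclin. In the rodent uterus, cyclooxygenase products are known for their part in implantation and decidualization, and prostaglandins drive contraction of the myometrium.

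The data here are the 10 genes Ptgs1, Ptgs2, Ptges, Ptgis, Hpgd, Ptger2, Ptger3, Ptger4, Ptgfr and Ptgir, chosen by symbol, of 24963 genes in an RNA-seq table of the mouse uterus. All 10 were listed. RNA came from whole uterine tissue at gestation day (GD) 3.5 of C57B6/J mice, mated at 8 weeks per the labels. The 4 control libraries, labelled WT, were Nr2f2 f/f per the study's methods, with both Nr2f2 alleles floxed and no Cre. The 4 Nr2f2 d/d libraries were Pgr Cre/+; Nr2f2 f/f, labelled as deficient for Nr2f2 where Pgr is expressed: a Cre knocked into the progesterone receptor gene deletes Nr2f2 in those cells. That Cre also occupies a Pgr allele in the Nr2f2 d/d mice alone, so the loss of Nr2f2 and the presence of the Cre allele cannot be told apart. Vasectomized males were used for mating in both groups, which leaves the uterus without embryos. The comparison asks whether prostaglandin gene expression at the receptive stage differed when Nr2f2 was lost from Pgr-expressing cells.

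Values are FPKM, the fragments of a gene scaled to the gene's length and to the fragments of the library, so that levels can be set beside each other between genes. Library totals, recovered from short genes of a single exon, were 61350000 to 92500000 fragments, with medians of 62250000 for controls and 80900000 for Nr2f2 d/d. Nr2f2, the targeted gene, was at 21.8 to 25.7 FPKM in controls and 6.90 to 9.74 FPKM in Nr2f2 d/d. The fitted log2 difference, given throughout as Nr2f2 d/d minus Nr2f2 f/f on the log2(FPKM + 0.5) scale, was -1.39 for Nr2f2 (standard error 0.12, adjusted p = 0.00549 in limma). Of the 14323 genes tested, 2.62% had an adjusted p under 0.05 (1.09% higher and 1.53% lower in Nr2f2 d/d), and 8.8% passed the threshold of the study's methods, an unadjusted p under 0.05 with a fold change of at least 1.4 (4.7% higher and 4.1% lower). Nothing in the sources used here states which library came from which mouse, so p-values measure the spread between libraries, which may be technical. In whole tissue, fewer cells of a type and less RNA per cell cannot be told apart. The defining markers of endothelium were lower in Nr2f2 d/d (8 of 8, of which 5 passed an adjusted p of 0.05 in limma, summed level 268 to 356 FPKM in controls and 159 to 206 in Nr2f2 d/d, none at 0). Those of epithelium summed to 550 to 648 FPKM in controls and 759 to 873 in Nr2f2 d/d, with 7 of 8 higher, and those of stroma to 1515 to 1700 and 2072 to 3653, with 4 of 8 higher.

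NR2F2 is a nuclear receptor, and such receptors bind DNA at half-sites, here searched as AGGTCA and GGGTCA on both strands of the RefSeq promoter windows (GRCm38.p6, 250 bases before to 50 after each start). Windows of 9 of the 10 genes were found, all but that of Ptgis, and 1 of the 9 held either half-site, against 27.5% of all 32851 windows. That gene was Ptgfr, with a match 170 bases before its start on the other strand and again just after its start. Ptgs2 is shown beside it as the 1 gene of the 9 with CGTCA, the half-site letters of the cyclic AMP response element, which 20.8% of all windows hold. The capitals mark the searched letters, and a match is a description of these letters alone.
Ptgfr, chr3:151837681-151837710, minus strand: aagcttcggaaaTGACCTctttcatttgga
Ptgfr, chr3:151837509-151837538, minus strand: aggaaggggcggAGGTCAcccagccctcca
Ptgs2, chr1:150100032-150100060, plus strand: gagtcaccactaCGTCAcgtggagtccgc

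None of the 10 genes passed an adjusted p of 0.05 in limma's test (2.62% of all genes tested; 1.09% in the higher and 1.53% in the lower direction) or the study's threshold (8.8%; 4.7% and 4.1%). None had FPKM that parted the genotypes, which 15.4% of all genes tested did. Levels of Ptger2, Ptgs1, Ptger4 and Ptgs2 spread widely between libraries of a genotype. Of the 9 genes abundant enough to test, 6 had a log2 difference above 0 and 3 below, with a median of 0.14 against -0.02 over all genes tested. Ptger3 alone had an unadjusted p under 0.05, which 21.2% of all genes tested had. The adjusted p-values of the 9 genes ran from 0.222 to 0.851, and exact permutation p-values of all 10 from 0.143 to 0.743, where 4 against 4 cannot go below 0.0286.

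**Figure D1:**
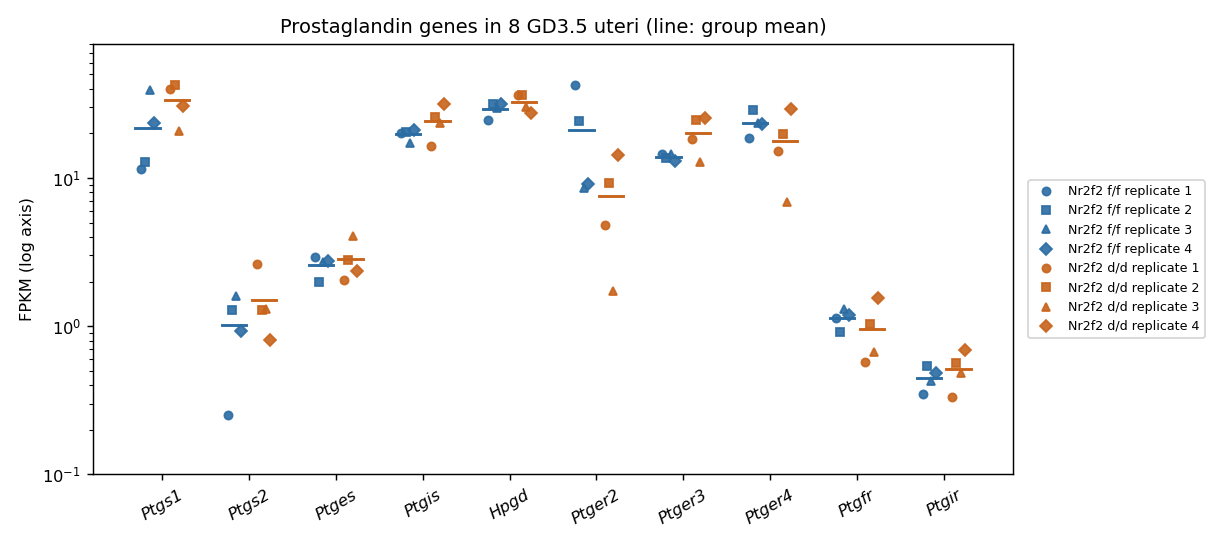
FPKM (log axis) of the 10 prostaglandin genes in each of 4 Nr2f2 f/f (blue) and 4 Nr2f2 d/d (orange) libraries, with a symbol for each replicate and a line at each group mean. The groups overlap for every gene, and Ptger2 spans 1.74 to 42.6 FPKM.

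In Nr2f2 f/f uteri the genes fell into a higher and a lower set by level, with no overlap between the sets. Hpgd (29.3 ± 3.26 FPKM, SD, n = 4), Ptger4 (23.4 ± 4.23), Ptgs1 (21.7 ± 12.8), Ptger2 (21.1 ± 16.1), Ptgis (19.7 ± 1.79) and Ptger3 (13.9 ± 0.738) were the higher set. Hpgd was above Ptger4 in 4 of 4 libraries, although their ranges overlapped, while Ptger4, Ptgs1, Ptger2 and Ptgis changed places from library to library and did not differ beyond their spread. Ptger3 was below Ptgis in all 4 libraries with no overlap. The lower set was Ptges (2.59 ± 0.417 FPKM, SD, n = 4), Ptgfr (1.13 ± 0.162), Ptgs2 (1.02 ± 0.579) and Ptgir (0.451 ± 0.0810), of which Ptges stood clear of the genes on either side and Ptgfr and Ptgs2 overlapped. In Nr2f2 d/d uteri the same 6 genes had the highest means, in another order, from Ptgs1 at 33.5 ± 9.79 FPKM (SD, n = 4) to Ptger2 at 7.51 ± 5.43, and neighbours in that order overlapped throughout. The sets overlapped there too, since Ptger2 was below Ptges in Nr2f2 d/d replicate 3 (1.74 against 4.07 FPKM). The least abundant values still rested on many reads: about 73 fragments for the lowest Ptgs2 value and 69 for the lowest Ptgir value, by the exon lengths of GENCODE.

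**Figure D2:**
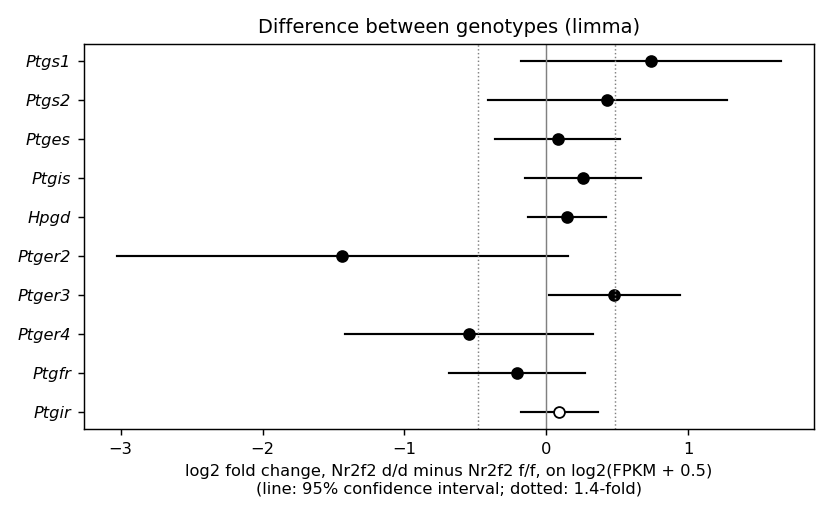
Log2 fold change of each gene, Nr2f2 d/d minus Nr2f2 f/f on the log2(FPKM + 0.5) scale, with its 95% confidence interval from limma, the dotted lines marking 1.4-fold. The interval of Ptger3 alone lies to one side of 0, and the open point is Ptgir, fitted without the filter on low values.

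Among the enzymes, Ptgs1, which encodes the cyclooxygenase usually described as constitutive, was at 11.4, 12.8, 39.1 and 23.4 FPKM in Nr2f2 f/f replicates 1 to 4. In Nr2f2 d/d replicates 1 to 4 it was at 40.1, 42.3, 20.8 and 30.8 FPKM. Control replicates 1 and 2 were lower than any Nr2f2 d/d library, and control replicate 3 was above Nr2f2 d/d replicates 3 and 4, so the groups overlapped. The log2 difference was 0.74 (95% interval -0.18 to 1.65, adjusted p = 0.326 in limma), which leaves room for anything from 0.884-fold to 3.15-fold. Leaving out control replicate 1 gave 0.50, and leaving out control replicate 3 gave 1.07, with an unadjusted p of 0.0113 and an adjusted p of 0.141 in limma. In mm10, the build of all coordinates here, Ptgs1 spans 36230426 to 36252272 of chromosome 2 (plus strand), and 3.81% of its exon bases overlap a gene of the other strand.

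Ptgs2, the inducible cyclooxygenase gene on chromosome 1 from 150100031 to 150108227 (plus strand), was scarce in all 8 libraries. It was at 0.252, 1.28, 1.602 and 0.926 FPKM in control replicates 1 to 4 and at 2.64, 1.28, 1.31 and 0.807 FPKM in Nr2f2 d/d replicates 1 to 4. Nr2f2 f/f replicate 1 was the lowest and Nr2f2 d/d replicate 1 the highest, with the other 6 libraries between 0.807 and 1.602 FPKM. This gave a log2 difference of 0.43 (95% interval -0.41 to 1.27, adjusted p = 0.535 in limma), or 0.63 with 0.1 FPKM added in place of 0.5, since the value added before the log2 understates the folds of low genes. Leaving out control replicate 1 gave 0.12, leaving out Nr2f2 d/d replicate 1 gave 0.19, and no other library left out gave more than 0.62. Within a library, Ptgs1 was 9.95 to 45.3 times as abundant as Ptgs2, and that ratio did not separate the genotypes.

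Ptges (chromosome 2, 30889471 to 30929863, minus strand) encodes the membrane-bound, inducible PGE2 synthase. Its FPKM were 2.93, 1.99, 2.69 and 2.76 in control replicates 1 to 4, while Nr2f2 d/d replicates 1 to 4 had 2.04, 2.80, 4.07 and 2.37. The groups overlapped almost fully, with Nr2f2 d/d replicate 3 the highest, and the log2 difference was 0.08 (95% interval -0.36 to 0.52, adjusted p = 0.851 in limma), negative without that library or without Nr2f2 f/f replicate 2. Ptgis, the prostacyclin synthase gene (chromosome 2, 167191805 to 167240604, minus strand), was at 20.1, 20.5, 17.1 and 21.1 FPKM in Nr2f2 f/f replicates 1 to 4. In Nr2f2 d/d it was at 16.5, 25.6, 23.3 and 31.3 FPKM, so 3 of 4 Nr2f2 d/d libraries were above every control and replicate 1 was below every control. The log2 difference of Ptgis was 0.26 (95% interval -0.15 to 0.66, adjusted p = 0.436 in limma), and it ran from 0.12 without Nr2f2 d/d replicate 4 (adjusted p = 0.690) to 0.42 without Nr2f2 d/d replicate 1 (adjusted p = 0.157).

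Hpgd, the gene of the main prostaglandin-inactivating enzyme, had the smallest spread of the enzymes over both genotypes together, while Ptgis spread less in controls alone. It was at 24.7, 31.7, 29.5 and 31.5 FPKM in control replicates 1 to 4 and at 36.2, 36.2, 30.2 and 27.5 FPKM in Nr2f2 d/d replicates 1 to 4. Nr2f2 d/d replicates 1 and 2 were above every control and the other 2 lay among the controls. Hpgd had a log2 difference of 0.14 (95% interval -0.13 to 0.42, adjusted p = 0.527 in limma), so that a difference of more than 1.34-fold in either direction lay outside the interval. Leaving out control replicate 1 gave 0.06, leaving out Nr2f2 d/d replicate 1 or 2 gave 0.09, and leaving out Nr2f2 d/d replicate 4 gave 0.22. Hpgd spans 56294585 to 56321043 of chromosome 8 (plus strand), and none of its exon bases are shared with another annotated gene.

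Among the receptors, Ptger2, a PGE2 receptor gene (chromosome 14, 44988195 to 45003820, plus strand), had the widest spread of the 9 genes tested. It was at 42.6, 24.3, 8.51 and 9.07 FPKM in control replicates 1 to 4 and at 4.83, 9.26, 1.74 and 14.2 FPKM in Nr2f2 d/d replicates 1 to 4. Control replicates 1 and 2 stood above the other 6 libraries, and Nr2f2 d/d replicates 1 and 3 stood below every control, but replicates 2 and 4 of Nr2f2 d/d overlapped with the lower controls. The log2 difference of Ptger2 was -1.44 (standard error 0.69, 95% interval -3.03 to 0.15, adjusted p = 0.279 in limma, exact permutation p = 0.171). The 6 gland markers summed to 606, 3291, 203 and 148 FPKM in control replicates 1 to 4 and to 33.6 to 89.9 FPKM in Nr2f2 d/d, with 5 of 6 lower. Spink1, Prss28 and Prss29 carried these sums and were highest in the same 2 controls as Ptger2, and Prss28 was at 0 in Nr2f2 d/d replicate 1. Foxa2 and Cxcl15 went the other way, being lower in control replicates 1 and 2 than in the other controls. Lif was at its highest in control replicate 1 (12.2 FPKM) and at its lowest in control replicate 2 (0.647 FPKM). The part of these cells in the Ptger2 values was not tested. Leaving out 1 library moved the log2 difference of Ptger2 to between -1.84 (Nr2f2 d/d replicate 4) and -0.93 (Nr2f2 d/d replicate 3).

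Ptger3 had the smallest p of the 10 genes in limma's test. It was nearly level in Nr2f2 f/f, at 14.5, 13.7, 14.5 and 12.9 FPKM in replicates 1 to 4, and was at 18.2, 24.6, 12.8 and 25.3 FPKM in Nr2f2 d/d replicates 1 to 4. Replicates 1, 2 and 4 of Nr2f2 d/d were above every control, and replicate 3 was just below every control. For Ptger3 the log2 difference was 0.48 (standard error 0.20, 95% interval 0.02 to 0.94), with an unadjusted p of 0.0434 and an adjusted p of 0.222 in limma and an exact permutation p of 0.143. The 1.39-fold difference on this scale fell just short of the study's fold threshold of 1.4, and the ratio of the mean FPKM was 1.46. With 0.1 added, median-ratio scaling or quantile normalization, Ptger3 passed both parts of that threshold. Without Nr2f2 d/d replicate 3 the log2 difference was 0.67 and the adjusted p was 0.0482 in limma, and in the fits that left out another library the adjusted p was at least 0.284. That library also held the least Nr2f2 of all 8 libraries, 6.90 FPKM, and the highest summed level of stroma markers, 3653 FPKM. Col1a1 (1141 FPKM) and Col3a1 (1289 FPKM) made up most of that sum. Other stroma markers went the other way there, with Thy1 the lowest of all 8 libraries (47.5 FPKM) and Vim below every control (231 FPKM). The part of stroma in the Ptger3 values was not tested. Ptger3 spans 157566892 to 157645888 of chromosome 3 (plus strand) and shares no exon bases with another annotated gene.

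Ptger4 (chromosome 15, 5206661 to 5244187, minus strand) was at 18.6, 28.9, 23.3 and 22.9 FPKM in control replicates 1 to 4 and at 15.1, 19.6, 6.87 and 29.2 FPKM in Nr2f2 d/d replicates 1 to 4. The highest and the lowest of all 8 values were both in Nr2f2 d/d. For Ptger4 the log2 difference was -0.55 (95% interval -1.42 to 0.33, adjusted p = 0.442 in limma), and it was -0.84 without Nr2f2 d/d replicate 4 and -0.17 without Nr2f2 d/d replicate 3. Of the exon bases of Ptger4, 16.5% overlap genes of the other strand, Ttc33 and Gm15937, and the sources used here do not give the strand setting of the counting.

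Ptger2, Ptger3 and Ptger4 were also set against each other within a library. Ptger4 exceeded Ptger3 in all 4 Nr2f2 f/f libraries, where the ratio of Ptger3 to Ptger4 was 0.779, 0.473, 0.621 and 0.564 in replicates 1 to 4. In Nr2f2 d/d replicates 1 to 4 the ratio was 1.201, 1.25, 1.86 and 0.867, above every control. The mean difference of this ratio was 1.06 on the log2 scale (exact permutation p = 0.0286). The ratio of Ptger2 to Ptger3 was 0.588 to 2.95 in controls and 0.136 to 0.563 in Nr2f2 d/d, a mean difference of -2.04 on the log2 scale (exact permutation p = 0.0286). A ratio does not depend on the scaling of a library, and a difference in it does not say which gene differs. The ratio of Ptger2 to Ptger4 overlapped, at 0.365 to 2.30 in controls and 0.253 to 0.488 in Nr2f2 d/d (exact permutation p = 0.229). All 45 ratios between the 10 genes were compared, and 4 of them parted the genotypes, the other two being Ptger3 to Ptgfr and Ptger4 to Ptgir. Over all pairs of tested genes above 0 in every library, 15.3% parted in this way, so the 10 genes had no more such ratios than that background. Their p is the smallest that 4 against 4 can give, and adjusted over the 45 ratios by the Benjamini-Hochberg method it was 0.286 in the exact permutation test, so none passed. With 1 library left out, the log2 difference of Ptger3 to Ptger4 was 0.87 to 1.23 (exact permutation p = 0.0286 to 0.0571), and that of Ptger2 to Ptger3 was -2.38 to -1.61 (exact permutation p = 0.0286 to 0.114).

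**Figure D3:**
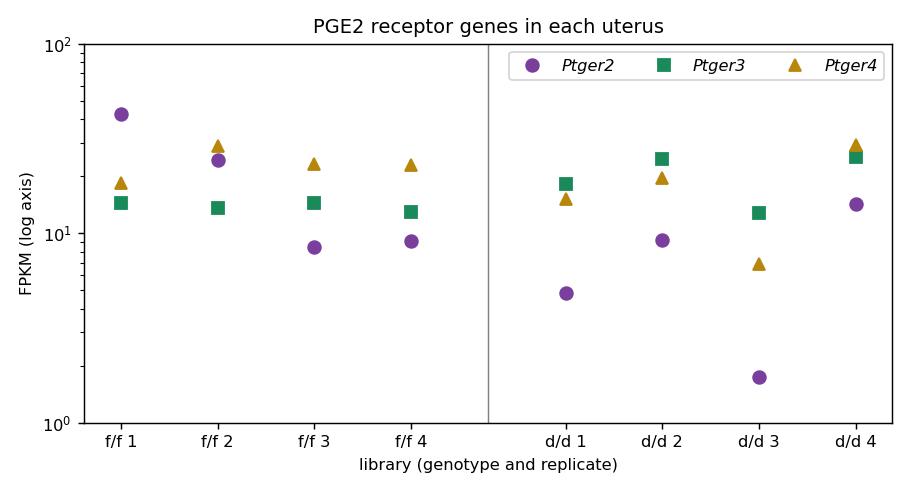
FPKM (log axis) of Ptger2, Ptger3 and Ptger4 in each library, Nr2f2 f/f replicates 1 to 4 at the left and Nr2f2 d/d replicates 1 to 4 at the right. Ptger3 (squares) is under Ptger4 (triangles) in every Nr2f2 f/f library and over it in Nr2f2 d/d replicates 1 to 3.

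Ptgfr and Ptgir, the receptor genes for PGF2alpha and prostacyclin, were scarce. Ptgfr (chromosome 3, 151796502 to 151837630, minus strand) was at 1.13, 0.912, 1.30 and 1.19 FPKM in control replicates 1 to 4 and at 0.576, 1.03, 0.667 and 1.56 FPKM in Nr2f2 d/d replicates 1 to 4, with Nr2f2 d/d values on both sides of the controls. Of the 9 promoter windows searched, its own alone held the half-site letters printed above. Its log2 difference was -0.21 (95% interval -0.68 to 0.27, adjusted p = 0.607 in limma), from -0.39 without Nr2f2 d/d replicate 4 to -0.08 without Nr2f2 d/d replicate 1, with -0.11 without Nr2f2 d/d replicate 3. Ptgir (chromosome 7, 16906490 to 16910905, plus strand) was at 0.351, 0.541, 0.427 and 0.483 FPKM in control replicates 1 to 4 and at 0.335, 0.568, 0.482 and 0.687 FPKM in Nr2f2 d/d replicates 1 to 4. Its mean over the 8 libraries was below the 0.5 FPKM needed for the test over all genes, and without that filter its log2 difference was 0.09 (95% interval -0.18 to 0.36, adjusted p = 0.723 in limma), and as a difference of means it ran from 0.0134 to 0.18 when Nr2f2 d/d replicate 4 or 1 was left out. Because both are near the 0.5 FPKM added before the log2, their fold changes are understated. Of 7 markers of the ovary, a rich source of Ptgfr, 5 had a mean under 0.5 FPKM and Fshr was at 0, and the list summed to 6.29 to 8.14 FPKM in controls and 6.52 to 7.96 in Nr2f2 d/d.

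For 7 of the 9 genes tested, the standard deviation of log2(FPKM + 0.5) was larger in Nr2f2 d/d than in Nr2f2 f/f, as it was for 45.6% of all genes tested. The spread of Ptger3 was 0.07 in controls and 0.45 in Nr2f2 d/d on that scale, and that of Ptger4 was 0.26 and 0.85. Within Nr2f2 d/d, replicate 4 was the highest in 6 of 10 genes (Ptgis, Ptger2, Ptger3, Ptger4, Ptgfr and Ptgir) and the lowest in 2 (Ptgs2 and Hpgd). Replicate 3 was the lowest in 4 (Ptgs1, Ptger2, Ptger3 and Ptger4), and replicate 1 in the other 4 (Ptges, Ptgis, Ptgfr and Ptgir). The markers of smooth muscle, the tissue of the myometrium, were highest in the same replicate 4, at a summed 2514 FPKM against 1023 to 1742 in the other Nr2f2 d/d and 1268 to 1799 in the Nr2f2 f/f libraries. Of these markers 6 of 8 had a log2 difference above 0 and none was at 0, but their median difference of 0.10 rested on that library and was -0.11 without it, and their part in the receptor levels was not tested. Within both groups pooled, Ptger2 had a standard deviation of 1.14, above that of 98.9% of genes tested, followed by Ptgs1 at 0.65 (95.1%), Ptger4 at 0.63 (94.4%) and Ptgs2 at 0.59 (93.5%). The median over all genes was 0.181.

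Levels of the 10 genes were also compared in pairs across the 8 libraries. None of the 45 correlations passed an adjusted p of 0.05, and 4 had an unadjusted p under 0.05 in the exact permutation test. The smallest p was that of Ptgis and Ptgir, the synthase and receptor genes of prostacyclin, with Pearson's r = 0.87 (exact permutation p = 0.00670, adjusted p = 0.301) and Spearman's rho = 0.88 (exact permutation p = 0.00724, adjusted p = 0.326). Without the 2 libraries farthest from the median of Ptgis, r was 0.60 over 6 libraries. These correlations pool both genotypes, since 4 libraries of a genotype are too few for one within it.

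The other genes of the eicosanoid pathways were taken from a list of 58, of which 40 were abundant enough to test. Pla2g2e and Ptgdr reached the filter through 1 genotype only, which fixed their direction. Of the other 38, 22 had a log2 difference above 0 and 16 below, with a median of 0.09. None passed an adjusted p of 0.05 in limma's test, where 2.62% of all genes tested did, and 5 had an unadjusted p under 0.05, where 21.2% of all genes tested had. The study's threshold was passed by 2, both of them higher in Nr2f2 d/d, against 4.7% of all genes tested in that direction. Of the 40, 4 parted the genotypes in FPKM, where 15.4% of all genes tested did. Ptgdr was 1 of these 4 and passed the filter only through the controls, so its parting is not a result. The 2 genes past the study's threshold were Pla2g5, a secreted phospholipase A2 gene, and Tbxa2r, the thromboxane receptor gene.

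Among 9 tested genes of arachidonic acid release, Pla2g5 was at 0.389, 0.0570, 0.919 and 1.13 FPKM in control replicates 1 to 4 and at 3.24, 2.61, 2.56 and 1.36 FPKM in Nr2f2 d/d replicates 1 to 4. All 4 Nr2f2 d/d libraries were above all 4 controls (exact permutation p = 0.0286), with a log2 difference of 1.46 (standard error 0.36, adjusted p = 0.0736 in limma). At these low levels that scale understates the fold, and the ratio of the mean FPKM was 3.91. Pla2g4a, the cytosolic phospholipase A2 that feeds the cyclooxygenases, was at 20.6, 18.7, 28.8 and 29.1 FPKM in controls and at 45.4, 46.7, 20.9 and 35.2 FPKM in Nr2f2 d/d replicates 1 to 4. Its log2 difference was 0.56 (adjusted p = 0.281 in limma), with 3 of 4 Nr2f2 d/d libraries above every control. Pla2g10, a secreted phospholipase of epithelia, spread from 4.13 to 38.0 FPKM in controls and from 5.70 to 40.3 FPKM in Nr2f2 d/d, with a log2 difference of 0.25 (adjusted p = 0.883 in limma).

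**Figure D4:**
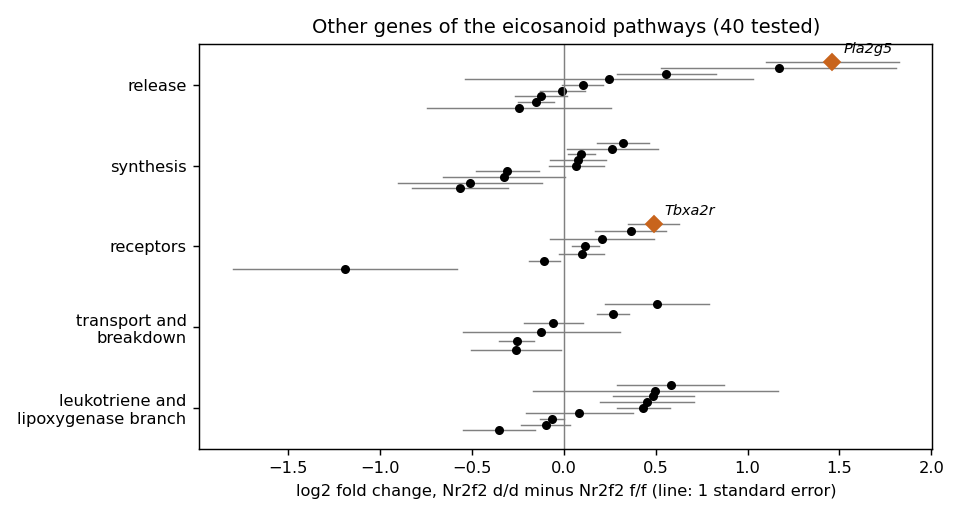
Log2 fold change, Nr2f2 d/d minus Nr2f2 f/f, of the 40 tested genes of the eicosanoid pathways by role, with a line of 1 standard error. The 2 genes that pass the study's threshold, Pla2g5 (1.46) and Tbxa2r (0.49), are diamonds with their symbols. Pla2g2e and Ptgdr are plotted too, although they reached the filter through 1 genotype only, which fixed their direction.

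Of the other receptor genes and receptor partners 7 were tested, and of the 6 without Ptgdr, 5 had a log2 difference above 0 (median 0.16). Tbxa2r was at 0.858, 0.993, 0.808 and 1.14 FPKM in control replicates 1 to 4 and at 1.198, 1.46, 1.94 and 1.58 FPKM in Nr2f2 d/d replicates 1 to 4, again with no overlap. Its log2 difference, understated at this level, was 0.49 (standard error 0.14, adjusted p = 0.0989 in limma). On this scale the fold of Tbxa2r was 1.403, just over the study's threshold of 1.4. Ptgfrn, a membrane protein gene named for binding to PTGFR, had a log2 difference of 0.36 (adjusted p = 0.313 in limma). Ptgdr, the PGD2 receptor gene 129 kb from Ptger2 on chromosome 14, is named here after its values were seen. It was at 0.685, 5.38, 0.209 and 0.301 FPKM in control replicates 1 to 4 and at 0.157, 0.158, 0.0850 and 0.0790 FPKM in Nr2f2 d/d replicates 1 to 4. Nr2f2 f/f replicate 2 stood far above the rest. The gene reached a mean of 0.5 FPKM only through the controls, so the text gives its difference as values alone. Of the exon bases of Ptgdr, 22.1% overlap a gene of the other strand. The highest and second highest Ptgdr levels were in the same 2 controls as those of Ptger2, in the opposite order.

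None of the 9 tested synthesis genes had an unadjusted p under 0.05 in limma's test. Ptges3, which encodes the cytosolic PGE2 synthase also known as the p23 chaperone, and Cbr1, a carbonyl reductase gene, had log2 differences of 0.08 and 0.10 (adjusted p = 0.805 and 0.474 in limma). Of the 6 genes of transport and breakdown, Ptgr2, which encodes a reductase of 15-keto prostaglandins, had a log2 difference of 0.27 (unadjusted p = 0.0137, adjusted p = 0.133 in limma). Of the exon bases of Ptgr2, 32.0% overlap a gene of the other strand. Zadh2, a related reductase gene, was at -0.26 (unadjusted p = 0.0284, adjusted p = 0.188 in limma). In the leukotriene and lipoxygenase branch, 6 of 9 tested genes had a log2 difference above 0 and 3 below, 1 of the 9 had an unadjusted p under 0.05 and none an adjusted one in limma. Its median was 0.43, against 0.05 for 8 genes of release, 0.07 for 9 of synthesis and -0.09 for 6 of transport and breakdown. Lta4h (-0.06) and Ltc4s (-0.35), leukotriene synthesis genes named here after their values were seen, were among the 3 of the branch below 0. Alox15 was the most abundant of the branch. It spread from 44.2 to 465 FPKM in controls and from 149 to 393 FPKM in Nr2f2 d/d, with a log2 difference of 0.50 (adjusted p = 0.702 in limma), and Alox12e, the next in level, had one of 0.45 (adjusted p = 0.345). Markers of neutrophils, cells known for leukotriene synthesis, summed to 3.63 to 21.1 FPKM in controls and 18.4 to 41.1 in Nr2f2 d/d. Of the 6, 5 had a higher mean and none was at 0, but Ly6g and Mmp8 averaged under 0.5 FPKM. S100a8 and S100a9 made up most of the Nr2f2 d/d sums. Retnlg went the other way, at 0.729 to 4.73 FPKM in controls and 0.266 to 0.772 in Nr2f2 d/d. None of the 4 tested passed an adjusted p of 0.05 in limma. Macrophage markers summed to 107 to 210 FPKM in controls and 145 to 222 in Nr2f2 d/d (6 of 8 higher, none at 0). None of these 8 had an unadjusted p under 0.05 in limma. The part of these cells in the values of this branch was not tested.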

How the data were processed

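The authors trimmed 76-bp paired-end reads with cutadapt 1.12, aligned them to mm10 with STAR 2.5.2b and counted fragments per gene with featureCounts 1.5.0-p1. The submitters' processing notes also name Cufflinks 2.0.2. The authors deposited FPKM, rounded to 3 decimals. The annotation and strand setting are not given in the sources used here. The study tested counts with DESeq2, and those counts were not used here.

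Replicate numbers are those of the sample titles. The 14323 genes whose mean over the 8 libraries reached 0.5 FPKM were compared on log2(FPKM + 0.5) with limma 3.58.1 in R 4.3.3 (eBayes with trend, two-sided), adjusted by Benjamini-Hochberg over all of them. Exact permutation tests of 4 against 4 libraries used all 70 arrangements, and those of correlations all 40320 orders of the 8 libraries. Coordinates, exon lengths and overlaps are from GENCODE vM21 (mm10), which matched 24378 symbols. Totals were the values at which 100% of 22 to 32 single-exon genes came out as whole fragments within 0.1, against medians of 13.0% to 17.4% at other totals.

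The genes and lists were chosen with earlier results of these data known. Of the list of other pathway genes, those past either threshold and the 2 most abundant of each role are named. A result for 1 gene that this rule selects is not reported here. The replicate number was not used as a block.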

Additional observations from a re-analysis of the deposited data

Results flagged for a closer look

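In 22 groups of 4 libraries (the 10 genes and Nr2f2, in each genotype), 1 held a library far from the others: Nr2f2 in Nr2f2 d/d replicate 3, at 6.90 FPKM, 0.888 of the range of its group away from the next library. About 1 in 20 such groups would be marked by chance. This library was also the lowest of its group for Ptgs1, Ptger2, Ptger3 and Ptger4. None of the 20 groups of prostaglandin gene values was marked.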

How the results depend on the processing

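The count of the 10 genes past an adjusted p of 0.05 was 0 in the alternatives run except without Nr2f2 d/d replicate 3, where it was 1 (Ptger3), so it ranged from 0 to 1 with a library left out. At the study's threshold it was 1 with 0.1 added, with median-ratio scaling, with quantile normalization and with the fold taken as the ratio of mean FPKM, the last chosen after seeing the data, and 0 to 2 with a library left out. The gene was Ptger3 in the first 4. Without Nr2f2 f/f replicate 3, Ptgs1 and Ptger2 passed, and without Nr2f2 d/d replicate 4, Ptger2 and Ptger4. Over all genes the adjusted count was 375, and 42 to 348 with a library left out (in Nr2f2 d/d, 42 without replicate 2 and 57 without replicate 1; in Nr2f2 f/f, 62 without replicate 1, 95 without replicate 4 and 208 without replicate 3). The other pathway genes at the study's threshold numbered 4 with 0.1 added, 1 with 1 added and 1 with quantile normalization, and 2 to 5 with a library left out. The log2 fold change of Ptges ran from -0.09 to 0.19 with a library left out and changed sign without Nr2f2 f/f replicate 2 (-0.0234) or Nr2f2 d/d replicate 3 (-0.0878). The median of the smooth muscle markers was 0.10, and -0.11 to 0.30 with a library left out, negative without Nr2f2 d/d replicate 4. The median of the mast cell markers was -0.13, and -0.24 to 0.0579 with a library left out, the last without Nr2f2 f/f replicate 2. Titles number both groups 1 to 4, but nothing says that a number marks a shared source, and same-numbered libraries did not deviate together (correlations of -0.20, -0.17, 0.05 and -0.04). No control correlated best with its own number. The sample descriptions share the numbers 1, 3 and 5, with correlations of -0.20, 0.15 and -0.04. With the title number as a replicate block, 1 gene in all passed the adjusted threshold, and 0 of the 10. The cause of these changes was not tested. With median-ratio scaling 50.8% of adjusted calls over all genes were higher in Nr2f2 d/d, against 41.6%.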
